A study of Saccharomyces cerevisiae with 12 samples.

Results

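The genes described here encode yeast actin, its filament-severing partner cofilin, its monomer-binding partner profilin, and the subunits of the Arp2/3 complex. They are ACT1, COF1, PFY1, ARP2, ARP3, ARC15, ARC18, ARC19, ARC35 and ARC40, taken by name as 10 of the 6120 genes of the deposited table. All 10 were measured in every library and passed the filter on low values. The study sequenced poly(A) RNA from strain pJD47 of Saccharomyces cerevisiae, budding yeast, at 4 time points with 3 libraries each. Quiescent cells had been shifted from glucose medium into water with 10 mM deuterated acetate and held there for 7 days. Cells leaving quiescence were washed, returned to liquid medium and collected after 30 min or 240 min. Log-phase cells were growing in synthetic complete medium with 2% glucose. The labels give all 4 groups the same strain and name no other genotype, and they do not say whether the log-phase cells preceded the acetate treatment.

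Actin monomers assemble into filaments that a budding yeast cell uses in a pair of forms: branched networks in cortical patches, where endocytosis takes place, and bundled cables, along which cargo moves to the bud. The Arp2/3 complex nucleates a new filament as a branch on the side of an existing one, and it works in the patches. Cofilin severs old filaments, and profilin loads monomers with fresh nucleotide and feeds them to the formins that build cables. In starved, non-dividing yeast, patches and cables are known to give way to immobile actin bodies, which dissolve when the cells are fed.

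Values are normalised read counts, which are reads per gene divided by a size factor for each library. A gene was called when its Benjamini-Hochberg adjusted p was under 0.05 in limma, fitted to log2(count + 1) over 5871 genes, and all log2 changes below are on that scale. The libraries are called biological replicates, and nothing says that they came from separate cultures, so the p-values measure the spread between these libraries, which may in part be technical. A count is a share of the sampled RNA, so fewer cells of a kind and less RNA per cell cannot be told apart. Recovered reads numbered 1195233 to 5220494 in quiescent libraries and 7943459 to 15100323 in the others. The 6 growth genes listed as a check of the labels summed to 54507 to 62721 counts in quiescent cells and 58426 to 64145 after 30 min, but to 279270 to 303534 after 240 min and 332007 to 435422 in log phase. Such a sum follows its largest genes, here mostly TDH3, with means of 31563 in quiescent cells and 25533 at 30 min. Within it NSR1 rose from a mean of 1064 to 10243 by 30 min (log2 3.28), while the other 5 genes were not called. The 8 stress and storage genes of starved cells summed to 110240 to 130425 in quiescent cells, then 38917 to 46696 after 30 min and 11260 to 13375 after 240 min. Of these 8, 5 were called lower at 30 min, where 23.7% of all genes were. HSP12 and HSP26 changed little by then, with log2 changes of -0.17 and -0.29 that were not called. In log phase their sum was 13687 in replicate 1 but 78008 and 57623 in replicates 2 and 3, and what part this plays in the log-phase values of the actin genes was not tested. Replicate 1 stood apart at every time point: it differed from the mean of replicates 2 and 3 by a median of 0.33 to 0.64 log2 units, where replicates 2 and 3 differed from each other by 0.07 to 0.21.

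Of these genes, 4 carry an intron close to the start codon and 6 carry none. The 4 sequences below run from the start codon into the intron on the coding strand, with the first 6 bases of the intron in capitals. They are shown because these 4 genes were also the ones with the highest log2 changes in log phase over quiescent cells. Coordinates are of the RefSeq R64 assembly, the same build as sacCer3, and sequences are from RefSeq.
ACT1: atggattctgGTATGTtctagcgcttgcac
COF1: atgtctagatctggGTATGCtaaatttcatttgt
PFY1: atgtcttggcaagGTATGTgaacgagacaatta
ARP2: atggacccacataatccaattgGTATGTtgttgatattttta
These stretches lie at chrVI:54667-54696 on the minus strand for ACT1, chrXII:40381-40414 on the minus strand for COF1, chrXV:552855-552887 on the minus strand for PFY1 and chrIV:399340-399381 on the plus strand for ARP2. The coding part before the intron is 10 bases in ACT1, 14 in COF1, 13 in PFY1 and 22 in ARP2. The introns are 309 bases long in ACT1, 179 in COF1, 209 in PFY1 and 123 in ARP2, where the median of 281 introns in nuclear coding genes is 141 bases. The start GTATGT is shared by 73.0% of those introns, and COF1 departs from it at the last of the 6 bases.

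Further along each intron stands the branch point motif TACTAAC, which 82.6% of the 281 introns hold. It is in capitals in these stretches.
ACT1: tcatgTACTAACatcga
COF1: tcaatTACTAACtaatt
PFY1: taaatTACTAACtggaa
ARP2: attaaTACTAACcatct
They lie at chrVI:54415-54431 in ACT1, chrXII:40348-40364 in COF1, chrXV:552732-552748 in PFY1 and chrIV:399460-399476 in ARP2. Counted from the next-to-last base of the motif, the intron ends 43 bases further on in ACT1, 132 in COF1, 72 in PFY1 and 14 in ARP2. Among the 5777 protein-coding genes tested, 267 have an intron, or 4.62%. None of the 10 genes overlaps another annotated gene, the nearest neighbour being 161 to 287 bases away, and no 75-base stretch of their coding sequence occurs elsewhere in the genome.

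Actin itself comes from ACT1, the only conventional actin gene of yeast. ACT1 (YFL039C, chrVI:53260-54696, minus strand) had 4386, 2527 and 2259 counts in quiescent replicates 1, 2 and 3, and 6394, 1541 and 1996 at 30 min. At 240 min it had 15158, 6289 and 6252 counts, and in log phase 19575, 14451 and 17213. Replicate 1 was the highest at each time point, and the 30-min libraries lay on both sides of the quiescent ones. All 3 log-phase libraries lay above all quiescent libraries, while 240 min overlapped with 30 min and with log phase. ACT1 was 5.79-fold higher in log phase than in quiescent cells (log2 2.53 ± 0.50 SE, limma adjusted p 9.69e-04). At 240 min it was higher than at 30 min by 1.64 ± 0.50 (adjusted p 0.0297), and at 30 min it differed from quiescent cells by -0.12 ± 0.50 (adjusted p 0.863). The rise between 30 and 240 min missed the threshold without 30-min replicate 2, 30-min replicate 3 or 240-min replicate 1, with adjusted p of 0.129, 0.106 and 0.114. With edgeR on the recovered reads its adjusted p was 0.0556, and with limma on these 6 libraries alone 0.0594.

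Cofilin, which cuts ageing filaments, and profilin, which binds monomers, had alike values throughout. COF1 (YLL050C, chrXII:39804-40414, minus strand) had 1848, 2758 and 2697 counts in quiescent replicates 1, 2 and 3, and 1472, 2195 and 2203 at 30 min. It had 3857, 6722 and 6648 at 240 min and 5093, 12464 and 13004 in log phase. Here replicate 1 was the lowest at each time point, the reverse of ACT1. PFY1 (YOR122C, chrXV:552298-552887, minus strand) had 1471, 2516 and 2380 counts in quiescent cells, 1695, 2246 and 2334 at 30 min, 4006, 6375 and 5945 after 240 min, and 5392, 14760 and 11235 in log phase. Quiescent and 30-min libraries overlapped for both genes, and all 240-min libraries lay above all 30-min ones. Log-phase replicate 1 lay below replicates 2 and 3 of 240 min for both genes, and above every quiescent library. The log2 change from 30 to 240 min was 1.53 ± 0.37 for COF1 and 1.36 ± 0.36 for PFY1 (limma adjusted p 0.00926 and 0.0146). In log phase over quiescent cells, COF1 was 3.91-fold higher (1.97 ± 0.37, adjusted p 6.52e-04) and PFY1 4.66-fold higher (2.22 ± 0.36, adjusted p 2.17e-04). The PFY1 rise between 30 and 240 min missed the threshold without 30-min replicate 1, 240-min replicate 2 or 240-min replicate 3 (adjusted p 0.0536, 0.0586 and 0.0540).

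**Figure D1:**
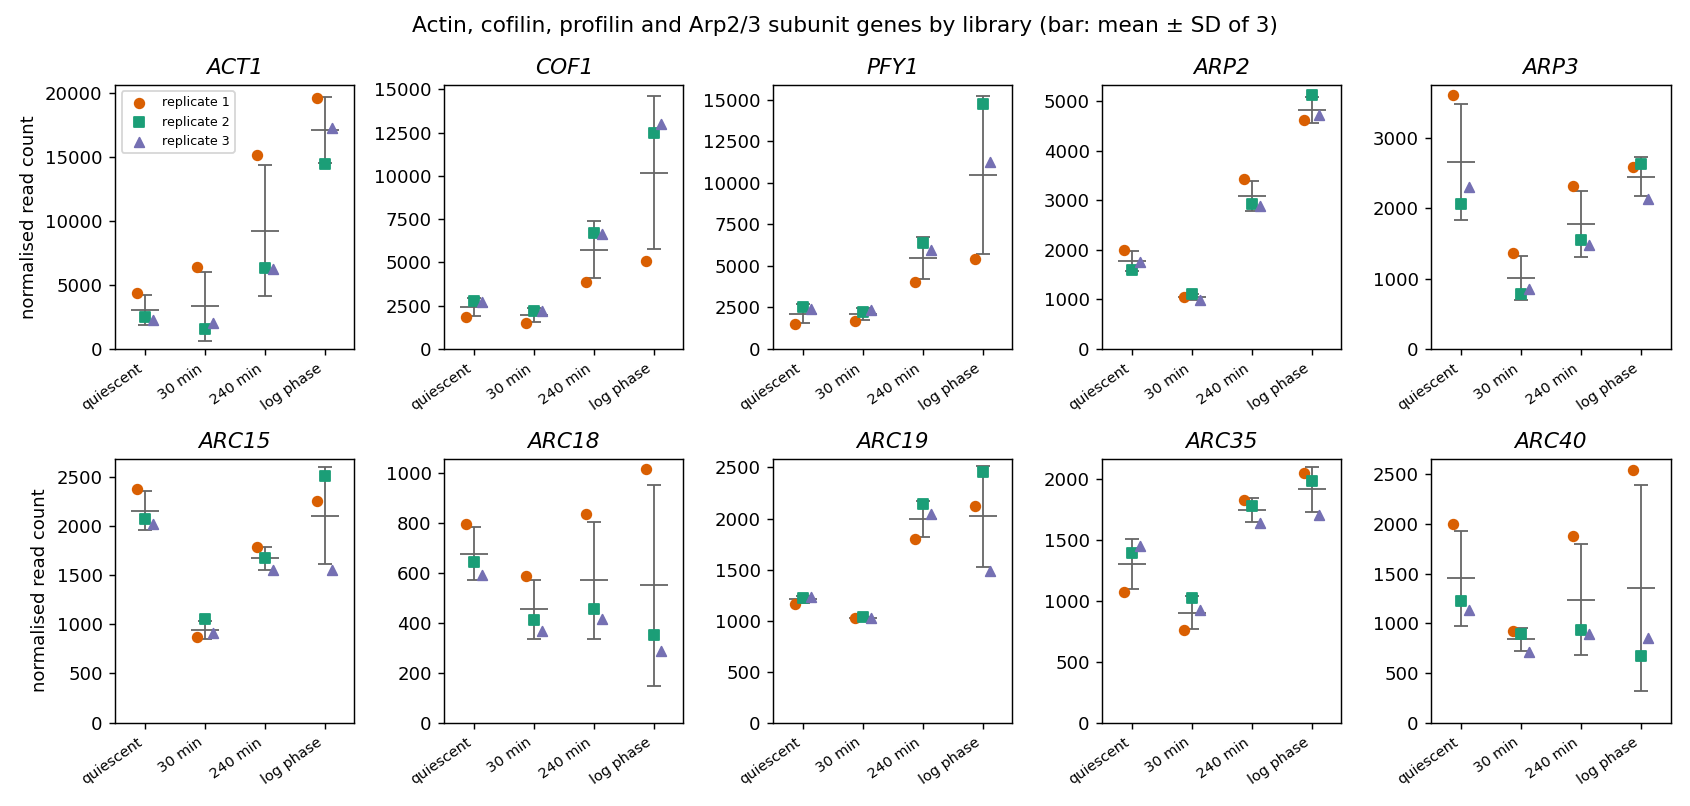
Normalised read counts (vertical axis, from 0) of each of the 10 genes in every library, by time point, with replicates 1, 2 and 3 as separate symbols and the mean ± SD of 3 as bars. ACT1, COF1, PFY1 and ARP2 climb to their highest values in log phase, while ARP3 and ARC15 dip at 30 min; replicate 1 (circles) is the highest ACT1 library and the lowest COF1 library at each time point.

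The 2 actin-related subunits of Arp2/3, which sit together at the base of a new branch, ended at different levels. ARP2 (YDL029W, chrIV:399340-400638, plus strand) had 1994, 1589 and 1752 counts in quiescent replicates 1, 2 and 3, and 1055, 1103 and 978 at 30 min. It had 3436, 2926 and 2888 at 240 min and 4616, 5117 and 4723 in log phase. No neighbouring time points overlapped, and the replicates were close. ARP2 was lower at 30 min than in quiescent cells by a log2 change of -0.76 ± 0.17 (limma adjusted p 0.00366), higher after 240 min than at 30 min by 1.56 ± 0.17 (8.78e-05), and higher in log phase than after 240 min by 0.65 ± 0.17 (0.0426). The last of these calls is the weakest, since it was lost without any 1 library other than replicate 1 of quiescent, 240-min or log-phase cells, with adjusted p of 0.0511 to 0.190.

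ARP3 (YJR065C, chrX:557809-559158, minus strand) had 3605, 2063 and 2303 counts in quiescent replicates 1, 2 and 3, 1360, 785.5 and 858 at 30 min, 2320, 1548 and 1471 after 240 min, and 2585, 2625 and 2126 in log phase. The 30-min libraries lay below all others, and the log-phase libraries lay within the range of the quiescent ones. ARP3 fell at 30 min by 1.41 ± 0.28 on the log2 scale against quiescent cells, the largest change of the group in that comparison (limma adjusted p 0.00173). It rose by 0.84 ± 0.28 between 30 and 240 min (adjusted p 0.0428), and in log phase it differed from quiescent cells by -0.08 ± 0.28 (adjusted p 0.817). Its rise to 240 min was lost without quiescent replicate 3 (adjusted p 0.0577), 30-min replicate 2 or 3 (0.159 and 0.136), 240-min replicate 1, 2 or 3 (0.143, 0.0710 and 0.0595) or log-phase replicate 2 (0.0502), and with edgeR (0.0510).

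ARC35 and ARC19 encode the subunits that form the core of the complex and hold it to the existing filament. ARC35 (YNR035C, chrXIV:693019-694047, minus strand) had 1074, 1391 and 1449 counts in quiescent replicates 1, 2 and 3, 759.3, 1026 and 927.8 at 30 min, 1833, 1779 and 1641 after 240 min, and 2056, 1990 and 1708 in log phase. ARC19 (YKL013C, chrXI:417508-418023, minus strand) had 1165, 1225 and 1231 counts in quiescent cells, 1027, 1036 and 1021 at 30 min, 1799, 2139 and 2045 after 240 min, and 2124, 2451 and 1486 in log phase. For both genes the 30-min libraries were the lowest, the 240-min libraries lay above all quiescent ones, and log phase overlapped with 240 min. ARC35 was lower at 30 min than in quiescent cells by a log2 change of -0.53 ± 0.19 (limma adjusted p 0.0387), and ARC19 differed by -0.23 ± 0.20 (0.359). Between 30 and 240 min both rose, by 0.96 ± 0.19 for ARC35 and 0.95 ± 0.20 for ARC19 (adjusted p 0.00294 and 0.00395). The 30-min call of ARC35 was lost without quiescent replicate 2 or 3, 30-min replicate 1 or 3, or 240-min replicate 2 or 3 (adjusted p 0.0575 to 0.138), and under total-count scaling, which divides by the summed counts of a library in place of its size factor (0.308).

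ARC15, ARC18 and ARC40 encode a pair of small subunits and the propeller-shaped WD-repeat subunit. ARC15 (YIL062C, chrIX:243998-244462, minus strand) had 2378, 2067 and 2019 counts in quiescent replicates 1, 2 and 3, 869.6, 1048 and 908.4 at 30 min, 1787, 1670 and 1549 after 240 min, and 2248, 2504 and 1552 in log phase. Like ARP3, it was lowest at 30 min and overlapped with quiescent cells again in log phase. It fell by 1.19 ± 0.20 at 30 min against quiescent cells and rose by 0.83 ± 0.20 from there to 240 min on the log2 scale (limma adjusted p 6.50e-04 and 0.0103).

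ARC18 (YLR370C, chrXII:861718-862254, minus strand) had 795, 643 and 589 counts in quiescent replicates 1, 2 and 3, 586.8, 408.8 and 365.3 at 30 min, 835.6, 453.9 and 415.5 after 240 min, and 1012, 350.2 and 286.5 in log phase. ARC40 (YBR234C, chrII:685438-686592, minus strand) had 2001, 1225 and 1130 counts in quiescent cells, 920.1, 894.8 and 708.3 at 30 min, 1878, 935.5 and 890.6 after 240 min, and 2544, 672.8 and 848.3 in log phase. In log phase, replicate 1 was the highest library of all for both genes, and replicates 2 and 3 lay below every quiescent library. Neither gene passed the test in any of the 5 comparisons with all 12 libraries. Without log-phase replicate 1, both were lower in log phase than in quiescent cells, ARC18 by a log2 change of -1.08 (limma adjusted p 0.00841) and ARC40 by -0.89 (0.0331). That library is also the one whose stress and storage sum was the lowest of log phase.

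At 30 min after the return to medium, the Arp2/3 genes stood below their quiescent level, while none of actin, cofilin and profilin was called. All 7 subunit genes had every 30-min library below every quiescent library, a pattern shown downwards by 33.4% and upwards by 29.3% of the 5871 genes tested. ARP2, ARP3, ARC15 and ARC35 passed the test, 4 of 10 genes called lower, where 23.7% of all genes were called lower. None was called higher, against 20.6% of all genes. The median log2 change was -0.75 over the 7 subunits and -0.56 over the 10 genes, against -0.07 over all genes tested. ARC40, at -0.75 ± 0.45, did not pass (limma adjusted p 0.192) but did with the replicate number as a block (0.0383), in a fit of these 6 libraries alone (0.0317) and without log-phase replicate 1 (0.0484). With replicates 2 and 3 only, 8 of the 10 genes were called lower, ACT1, COF1, ARC18 and ARC40 being added. In that setting 2261 of the 5871 genes tested were called lower and 1933 higher. ACT1 and PFY1 had no settled sign in this comparison, since it changed under several of the settings tried.

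Between 30 and 240 min, 8 of the 10 genes rose, where 13.3% of all genes were called higher and 14.0% lower. Those 8 are ACT1, COF1, PFY1, ARP2, ARP3, ARC15, ARC19 and ARC35, and ARC18 and ARC40 had log2 changes of 0.28 and 0.47 (limma adjusted p 0.667 and 0.476). For 7 of the 10 genes every 240-min library lay above every 30-min library, against 25.6% of all genes, and 27.6% the other way. The median change was 0.96 over the 10 genes and 0.84 over the Arp2/3 subunits, against -0.01 over all genes. This count depended on the scaling. When libraries were scaled to their summed counts, the median of all genes moved to -0.46, calls over all genes were 328 higher and 1941 lower in place of 779 and 823, and 3 of the 10 genes were called, all higher: COF1, PFY1 and ARP2. ARC18 then changed sign to -0.17, and the other 9 genes kept positive values.

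Between 240 min and log phase few calls were made. ARP2 was the only 1 of the 10 called, higher, where 3.27% of all genes were called higher and 4.09% lower. It was also the only gene whose libraries did not overlap, against 9.64% of all genes upwards and 12.7% downwards. ACT1, COF1 and PFY1 were higher in log phase than at 240 min by log2 changes of 1.01, 0.75 and 0.85, which did not pass (limma adjusted p 0.233, 0.227 and 0.160). In all 3 replicate numbers the log-phase library of each of these genes lay above the 240-min library of the same number. The same held for ARP2 and for ARP3, ARC15 and ARC35, which were not called (limma adjusted p 0.305, 0.369 and 0.702). In replicate 3 the margin was small for ARC15, at 1552 against 1549 counts, and for ARC35, at 1708 against 1641. The share of all genes with this pattern was not computed. With the replicate number as a block, limma adjusted p was 0.0365 for ACT1, 0.0235 for COF1 and 0.0185 for PFY1, which all passed. So 4 of the 10 genes were called in place of 1, while calls over all genes went from 432 to 1066. Without log-phase replicate 1, 3 were called, all higher, where 1108 of the 5871 genes tested were called higher and 968 lower. With replicates 2 and 3 only, 6 were called, where 1872 of all genes were higher and 1801 lower. Of those 6, ARC18 was lower by a log2 change of -0.45 (limma adjusted p 0.0128) and the other 5 higher. Under total-count scaling, and in a fit of these 6 libraries alone, 0 of the 10 genes passed.

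**Figure D2:**
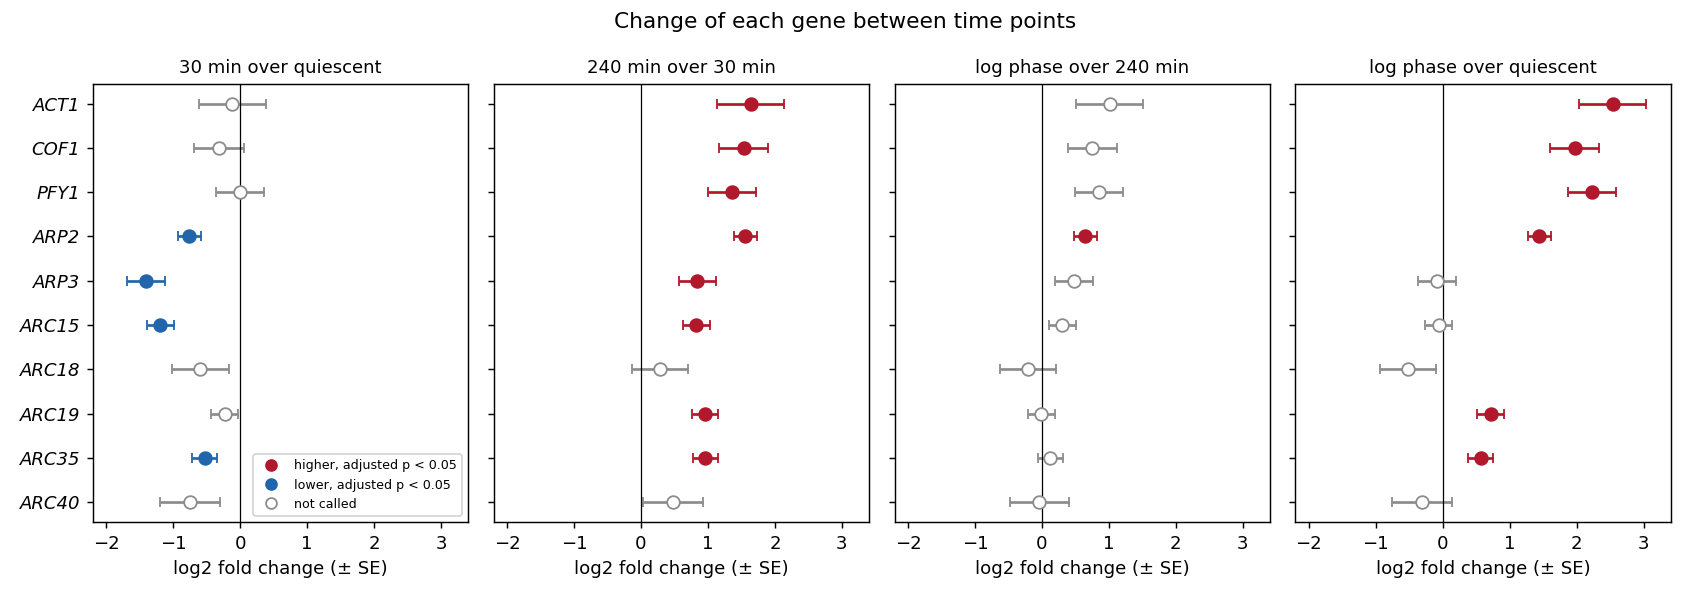
Log2 fold change (horizontal axis, ± SE from limma) of each of the 10 genes in 4 comparisons, the later time over the earlier one, with filled points for adjusted p under 0.05. At 30 min the 4 called genes are Arp2/3 subunits and all lower than in quiescent cells, by 240 min 8 genes are higher than at 30 min, and in log phase over quiescent cells the changes run from -0.52 for ARC18 to 2.53 for ACT1.

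Set against quiescent cells, the later groups separated the genes. The comparisons that follow share the quiescent libraries, so their values are not independent of each other or of those at 30 min. At 240 min, ACT1, COF1, PFY1, ARP2 and ARC19 were higher, 5 of 10 where 29.1% of all genes were called higher and 29.5% lower. No overlap between the libraries was seen upwards for 6 genes, against 34.9% of all genes, and downwards for 1, ARC15, against 34.8%. The log2 changes over quiescent cells were 1.52 ± 0.50 for ACT1, 1.22 ± 0.37 for COF1, 1.37 ± 0.36 for PFY1, 0.80 ± 0.17 for ARP2 and 0.72 ± 0.20 for ARC19 (limma adjusted p 0.0198, 0.0131, 0.00568, 0.00170 and 0.00726). The ACT1 call was lost without quiescent replicate 2 or 3 or 240-min replicate 1 (adjusted p 0.0599, 0.0704 and 0.0897), and the COF1 call without quiescent replicate 1 or 240-min replicate 2 or 3 (0.0549, 0.0517 and 0.0520). ARP3 stood at -0.57 ± 0.28 (adjusted p 0.101), and with the replicate number as a block it was called lower (0.0146) and ARC35 higher (0.0389). ARP3 was also called lower without 240-min replicate 1 (0.0423), and ARC35 higher without log-phase replicate 1 (0.0406). Under total-count scaling ARP3 and ARC15 were both called lower, by log2 changes of -0.76 and -0.56 (adjusted p 0.0343 and 0.0351). With replicates 2 and 3 only, 9 genes were called, 6 higher and 3 lower. In that setting 2318 of the 5871 genes tested were called higher and 2309 lower.

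In log phase over quiescent cells, 6 of the 10 genes were higher, where 28.8% of all genes were called higher and 27.8% lower: ACT1, COF1, PFY1, ARP2, ARC19 and ARC35. ARP2 was 2.72-fold higher (log2 1.44 ± 0.17, limma adjusted p 2.20e-05), while ARC19 and ARC35 rose by 0.71 ± 0.20 and 0.56 ± 0.19 (0.00816 and 0.0227). ARP3, ARC15, ARC18 and ARC40 had log2 changes of -0.08, -0.06, -0.52 and -0.31, and none of them passed. Over the 7 Arp2/3 subunits the median was -0.06, against 0.05 over all genes, and each of the other 6 genes changed by less than ACT1, COF1, PFY1 and ARP2. ARC35 was lost without quiescent replicate 1 (adjusted p 0.0786) or log-phase replicate 2 (0.0562). In a fit of these 6 libraries alone, ARC19 and ARC35 both missed the threshold (0.0524 and 0.0836). Under total-count scaling ARC19 and ARC35 were lost (0.325 and 0.727) and ARC15 was called lower (0.0454), with all-gene calls of 978 higher and 2387 lower in place of 1691 and 1635.

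The 4 genes with an intron were the 4 with the largest log2 changes in log phase over quiescent cells, 1.44 to 2.53, and all of them were called higher. The 6 without an intron ran from -0.52 to 0.71, with 2 called higher. This split was noticed after the values were seen, so it is a description without a test. Over all 267 intron genes tested, the median log2 change was 0.86, with 46.8% called higher and 17.6% lower. Ribosomal protein genes hold many of the yeast introns. With them and the 4 members left out, the other 174 intron genes had a median log2 change of 0.01, with 25.9% called higher and 27.0% lower.

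The ratio of ARP2 to ARP3, the actin-related pair found together in each complex, shifted in steps. As counts per kilobase of coding length it was 0.635, 0.884 and 0.873 in quiescent replicates 1, 2 and 3, 0.890, 1.61 and 1.31 at 30 min, 1.70, 2.17 and 2.25 after 240 min, and 2.05, 2.24 and 2.55 in log phase. Quiescent libraries lay below all others, and 30-min libraries lay below all 240-min and log-phase libraries, which overlapped. The ratio averaged 2.28 ± 0.25 in log phase and 0.797 ± 0.141 in quiescent cells (SD, n = 3 each). An exact two-sided permutation test gave p = 0.1 for that comparison, the smallest that 3 against 3 libraries allow, and an adjusted p of 0.375 over the 15 ratio comparisons made, so the design could not pass the threshold.

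The ratios of cofilin and profilin to actin split by replicate number at every time point. COF1 over ACT1 per kilobase was 0.601 to 1.10 in the replicate 1 libraries and 1.97 to 3.72 in replicates 2 and 3. PFY1 over ACT1 was 0.782 to 0.993 in replicate 1 and 1.93 to 4.31 in the others. Averaged by time point, COF1 over ACT1 was 2.36 ± 1.10 in quiescent cells, 2.40 ± 1.61 at 30 min, 2.08 ± 1.22 after 240 min and 1.63 ± 0.84 in log phase (SD, n = 3 each). All groups overlapped, and the exact permutation p of the 10 comparisons of these ratios ran from 0.5 to 1. The sources used here do not give the meaning of the replicate numbers.

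**Figure D3:**
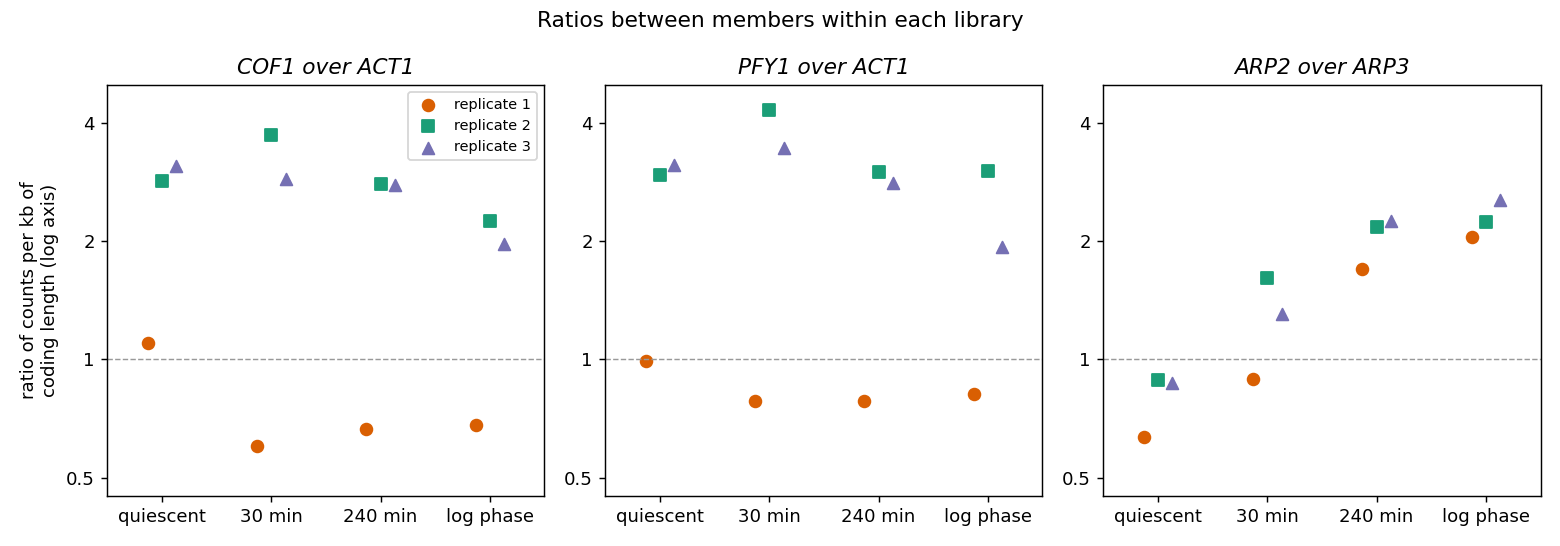
Ratios of counts per kilobase of coding length within each library (vertical axis, log scale) for COF1 over ACT1, PFY1 over ACT1 and ARP2 over ARP3, by time point, with a symbol per replicate number and a dashed line at a ratio of 1. Replicate 1 lies near or below 1 for cofilin and profilin over actin at all times while replicates 2 and 3 lie at 1.93 or above, and ARP2 over ARP3 is 2.05 to 2.55 in log phase, against below 1 in quiescent cells.

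Per kilobase of coding length, profilin and cofilin had the highest mean levels of the group, but neither was highest in a replicate 1 library. There ARC15 was the highest in quiescent cells, and ACT1 in each of the later groups. The means of PFY1 and COF1 were 5571 and 5635 counts per kilobase in quiescent cells, 5489 and 4529 at 30 min, 14283 and 13292 after 240 min, and 27460 and 23582 in log phase, and their libraries overlapped each time. Next came ARC15 in quiescent cells, at 4634, whose libraries lay above those of ACT1 at 2710. The mean of ACT1 was 2935 counts per kilobase at 30 min, 8185 after 240 min and 15142 in log phase. At 30 min that mean rested on replicate 1, at 5669, since replicates 2 and 3, at 1366 and 1770, lay below ARC15 at 2254 and 1954. At 240 min and in log phase its libraries lay above those of every Arp2/3 subunit.

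Among the subunits, which the complex holds in equal numbers, message levels per kilobase were unequal. The highest over the lowest mean was 3.69 in quiescent cells (ARC15 over ARC40), 2.78 at 30 min (ARC15 over ARC40), 3.65 after 240 min (ARC19 over ARC18) and 4.42 in log phase (ARC15 over ARC18). The means of ARC15 and ARC19 stood above ARC35, ARC18 and ARC40 at all 4 time points, and that of ARP2 was 1512 in quiescent cells, the middle of the 7 subunits, then 889 at 30 min, 2622 after 240 min and 4097 in log phase, beside ARC15 and ARC19. The level of ACT1 over the median subunit was 1.75 ± 0.46 in quiescent cells, 3.07 ± 2.24 at 30 min, 4.75 ± 2.43 after 240 min and 7.89 ± 1.30 in log phase (SD, n = 3 each). Log-phase libraries, at 6.59 to 9.19, lay above all quiescent libraries, at 1.34 to 2.24, and the 30-min and 240-min libraries overlapped.

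**Figure D4:**
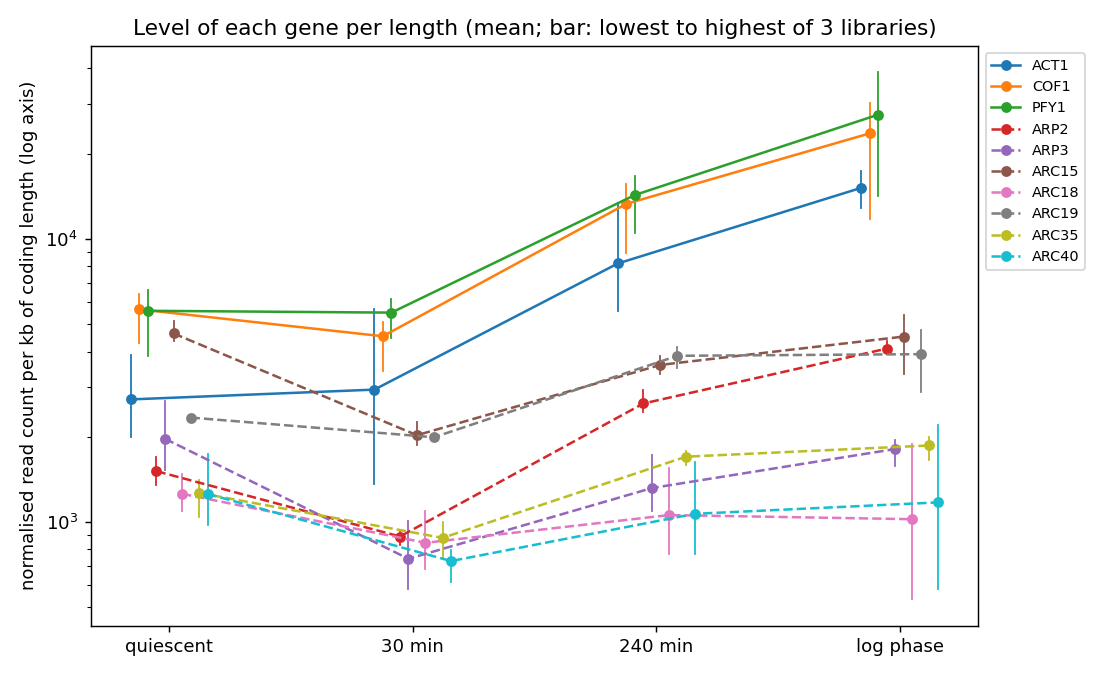
Mean normalised read count per kilobase of coding length (vertical axis, log scale) of each of the 10 genes at the 4 time points, with bars from the lowest to the highest of 3 libraries, solid lines for actin, cofilin and profilin and dashed lines for the Arp2/3 subunits. The means of profilin and cofilin lie highest, the profilin bar overlapping that of actin at all 4 time points and the cofilin bar from 30 min on. Actin lies above all subunits at 240 min and in log phase, and ARP2 goes from the middle of the subunits to the level of ARC15 and ARC19.

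The wider actin machinery and genes related to it were described through 8 lists holding 83 genes. They include tubulins, actin-related proteins of other complexes, and chaperonin and prefoldin genes that also serve tubulin, so pooled counts are not of actin machinery alone. At 30 min over quiescent cells, 25 of them were lower, where 23.7% of all genes were, and 16 (19.3%) were higher, near the 20.6% of all genes. Of 10 activators and regulators of Arp2/3, 7 were lower at 30 min than in quiescent cells and 0 higher. LAS17, the yeast WASP and main activator of the complex, averaged 187.8 ± 13.4 counts at 30 min and 547.1 ± 31.4 in quiescent cells (SD, n = 3 each), a log2 change of -1.54 ± 0.23 (limma adjusted p 3.20e-04). BBC1, which restrains Las17, and PAN1, an endocytic activator of Arp2/3, were lower by log2 changes of -1.54 and -1.64. The list's median was -1.16, against -0.07 over all genes.

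The genes of the endocytic coat and of membrane scission, which act at the same patches, had 11 of 18 members lower and 0 higher, with a median of -0.78. ARK1, a kinase that disassembles patches, averaged 726 ± 66.8 counts at 30 min and 1795 ± 15.1 in quiescent cells (log2 -1.31). The clathrin adaptor YAP1801 and the actin-binding YSC84 were lower by log2 changes of -1.56 and -1.78, and YSC84 has a close paralog, LSB3, with which reads could be shared. Among 7 genes of filament turnover and capping, 3 were lower: CAP2, a subunit of the capping protein, AIM3, and SRV2, which recycles monomers with cofilin, by log2 changes of -1.58, -1.65 and -1.16. With the replicate number as a block, 5 of these 7 were lower, where 1799 of the 5871 genes tested were lower. Of 11 cable, formin and bundler genes, 1 was higher, the ring myosin MYO1 at 1.55, and 1 lower, the bundler SAC6 at -1.32. Both counts were under the shares of all genes, 20.6% higher and 23.7% lower. With the block 4 of the 11 were lower, near the share of all genes with the block.

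The chaperonin and prefoldin genes, whose products fold newly made actin and tubulin, went the other way: 10 of 15 were higher at 30 min and 0 lower, with a median of 0.84. Over all genes, 20.6% were called higher and 23.7% lower in this comparison. YKE2, a prefoldin subunit, averaged 765 ± 95.6 counts at 30 min and 241.5 ± 26.1 in quiescent cells (log2 1.66 ± 0.18, limma adjusted p 4.29e-05). The chaperonin genes TCP1 and CCT7 were higher by 1.02 and 0.95. Tubulin genes had 2 of 4 higher, TUB4 and TUB2 at 0.92 and 0.89, and polarity genes 2 of 10 higher, RHO3 and CLA4 at 1.95 and 0.78, and 1 lower, BOI2 at -0.96, the higher calls of the polarity list being near the share of all genes and the lower calls under it. Of 8 actin-related proteins of other complexes, 1 was higher, ARP9 at 0.97, and 2 were lower, ARP6 and ARP8 at -0.73 and -0.59. Those lower calls were near the share of all genes, and the higher call was under it. Of the genes named for this comparison, ARP8, CLA4 and TUB2 each lost the call without at least 1 library, and ARP6 and ARP8 lost it under total-count scaling.

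Between 30 and 240 min, 28 of the 83 listed genes (33.7%) were higher and 0 lower, against 13.3% and 14.0% of all genes. The cable-stabilising tropomyosins led: TPM1 averaged 13490 ± 1216 counts at 240 min and 4011 ± 442 at 30 min (SD, n = 3 each; log2 1.75), and TPM2 averaged 3070 ± 451 at 240 min and 779 ± 112 at 30 min (log2 1.98). CRN1, the yeast coronin, and GMF1, which removes branches, rose by 1.68 and 1.60, SRV2 by 1.38, clathrin heavy chain CHC1 by 1.52, the amphiphysin RVS167 by 1.17 and the alpha-tubulin TUB3 by 1.28. TUB3 has a near-identical paralog, TUB1, so the split of reads between them is uncertain. The lists, read against 13.3% of all genes, gave higher calls for 3 of 10 Arp2/3 regulators, 5 of 11 cable genes, 3 of 7 turnover genes, 6 of 18 endocytic genes, 4 of 15 chaperonin and prefoldin genes, 1 of 8 other actin-related proteins, 3 of 4 tubulins and 3 of 10 polarity genes, the share for the other actin-related proteins being near that of all genes.

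The count of 28 changed with the settings. Under total-count scaling there were 8 higher (9.64%) and 7 lower (8.43%), where the 5878 genes then tested gave 328 higher and 1941 lower. Of the 22 genes named by rule for this comparison, 14 then lost their call, none changing sign: ABP1, MYO4, CAP1, TWF1, RVS161, PAC10, CCT7, GIM3, ARP5, TUB2, TUB1, RGA1, RHO1 and BOI1. The count was 15 without 30-min replicate 2, 30-min replicate 3 or 240-min replicate 3, 17 without 240-min replicate 2 and 44 without log-phase replicate 1. Higher calls over all genes were 516, 529, 518, 523 and 1114 in that order, in place of 779. With the replicate number as a block, 45 were higher and 3 lower, where 1155 of the 5871 genes tested were higher and 1159 lower. The 45 held 10 of 15 chaperonin and prefoldin genes and 11 of 18 endocytic genes.

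In log phase over quiescent cells, 36 of the 83 genes (43.4%) were higher and 11 (13.3%) lower, against 28.8% and 27.8% of all genes. Under total-count scaling 22 were higher and 23 lower, where the 5878 genes then tested gave 978 higher and 2387 lower. The chaperonin and prefoldin list had 12 of 15 higher, the tubulins 4 of 4 and the cable genes 6 of 11. The endocytic genes had 5 of 18 higher, close to the share of all genes, and 2 lower. Arp2/3 regulators had 1 of 10 higher, CRN1 at 1.06, and 4 lower: LAS17, BBC1, PAN1 and VRP1, the partner of Las17, at -1.64, -1.93, -1.62 and -2.05.

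**Figure D5:**
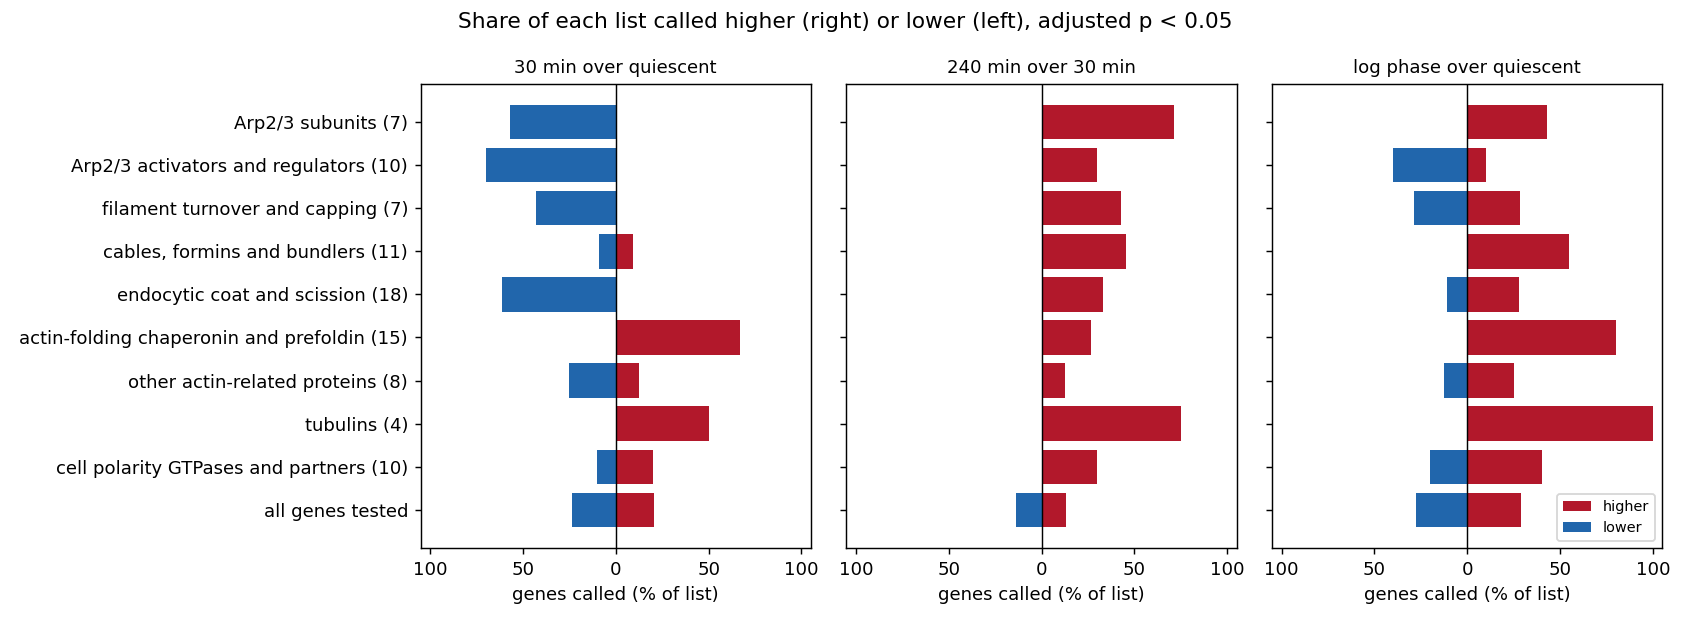
Share of each list called higher (bars to the right) or lower (bars to the left) in 3 comparisons, with the number of genes tested in brackets and the share over all genes tested at the bottom. At 30 min the Arp2/3 subunits, their regulators and the endocytic genes have lower calls only while chaperonin and prefoldin genes have higher calls only, and by 240 min over 30 min no list has a lower call.

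The 300 bases around each start codon, 250 before to 50 after, were searched on both strands for 5 short motifs. AGGGG, the stress response element that the factors Msn2 and Msn4 bind, stood in 7 of the 10 windows and in 21.6% of 6001 such windows of the genome. It is in capitals below, as AGGGG where it is on the coding strand and as CCCCT where it is on the other, because it was the motif shared by the most members.
ACT1: tattcttccttCCCCTttctactcaaa
COF1: gggtgacgccgCCCCTgtttgatgaca
ARP3: aatggcgagaaCCCCTtttcaaaagtt
ARC15: ctcagactttgCCCCTataacaaaata
ARC18: tccaccacgaaCCCCTatcctttccgt
ARC19: ttaccacgtcgCCCCTtttgtatagca
ARC35: actataagcatAGGGGctaactagcgt
All 7 stretches are on the minus strand, at chrVI:54819-54845, chrXII:40512-40538, chrX:559242-559268, chrIX:244550-244576, chrXII:862376-862402, chrXI:418136-418162 and chrXIV:694109-694135 in the order printed. TTACCCG, the site of the factor Reb1, stood in 4 windows, those of COF1, PFY1, ARP2 and ARC15, against 7.08% of all windows. GAANNTTC, the core of the heat shock element, stood in COF1 and ARC35 (11.8% of all windows), GATGAG, the PAC core, in ARC35 (20.4%), and ACGCGT, the MluI cell cycle box, in 0 members (3.07%). The GATGAG match lies past the start codon, within the coding sequence of ARC35. No match overlapped another. A match is a string of letters and not a shown binding site.

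Outside the group, the genes most like ACT1 over the 12 libraries, among 5621 genes with a mean of at least 50, were DPM1, PDX1, OST3, SLC1 and TWF1, with Pearson correlations of log2 values from 0.970 to 0.979. For the mean log2 value of the 7 Arp2/3 subunits they were HMO1, PRO3, DIG1, RBD2 and APE3, from 0.928 to 0.957. TWF1, twinfilin, is the only 1 of these 10 genes in the actin lists above. These correlations are descriptive, since the libraries share time points and replicate numbers.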

How the data were processed

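The authors deposited a table of 6120 genes with a normalised read count, a signal that is never negative, for 12 libraries of 4 groups with 3 replicates each. The submitters' processing notes name the sacCer3 build, bedtools, DESeq2, DESeq, HTSeq 0.6.1 and STAR 2.5.2a, with no role. Per the labels' protocols, poly(A) RNA was made into NEBNext Ultra II libraries and read for 75 bases from 1 end. The sources used here do not say whether counting used strand. Every deposited value was a whole multiple of the value of 1 read (100% within a tolerance of 1e-06), which was 6.97 in quiescent replicate 1, 1.46 and 1.70 in the other quiescent libraries and 0.554 to 0.863 elsewhere, so the deposited signal was taken as reads divided by a size factor.

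In R 4.3.3, limma 3.58.1 was fitted with a trend on intensity to log2(value + 1) for the 5871 genes with a mean of at least 10, in 1 model of 4 groups with 8 residual degrees of freedom, two-sided, with Benjamini-Hochberg adjustment over all genes tested in a comparison. The design had a branch for raw counts, and the branch for normalised values was used. Ratios were compared by exact permutation of libraries. Other settings were pseudocounts of 0.5 and 5, no filter, total-count scaling, edgeR 4.0.16 and DESeq2 1.42.0 on the recovered reads, a fit of the 6 compared libraries, the replicate number as a block, replicates 2 and 3 alone, and each library left out. The test was checked on simulated counts. These held no difference between replicate numbers, so the check does not cover the spread between replicates seen here. Within each group, all pairs of libraries differed by more than sampling noise.

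Names and coordinates come from the RefSeq R64 annotation, in which 6113 genes matched by name and 7 did not. All 10 members were named, as were up to 3 called genes of each list with the smallest adjusted p at 30 min over quiescent cells and at 240 min over 30 min, and a few called genes of log phase over quiescent cells (VRP1 and the genes named before). VRP1 was chosen after its value was seen. The members, lists and tests were chosen with earlier results of these data known.

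The labels number the replicates without saying what a number stands for. Across genes, deviations from the group means correlated in all 18 same-number pairs (0.134 to 0.582). The main fit did not pair the libraries by number, and blocked values are given where they change a call. Replicates 2 and 3 of different groups also correlated (0.210 to 0.553), and replicate 1 correlated negatively with both (-0.604 to -0.197). These values set replicate 1 apart, and they cannot tell whether replicates 2 and 3 are paired by number.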

Additional observations from a re-analysis of the deposited data

How the results depend on the processing

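Over the 10 genes, 5 comparisons and 21 other settings, 967 of 1050 values kept their direction and side of the threshold or were never called, 51 lost a call and 32 gained one. No called value changed sign; signs changed only among values that were not called. At 30 min over quiescent cells, 4 genes were called, and 8 with replicates 2 and 3 only. At 240 min over 30 min, 8 were called, and 3 under total-count scaling. At 240 min over quiescent cells, 5 were called, and 9 with replicates 2 and 3 only. In log phase over 240 min, 1 was called, 0 under total-count scaling, 0 in the fit of the 6 compared libraries, 4 with the replicate block, 6 with replicates 2 and 3 only, and 0 to 3 when 1 library was left out. Calls over all genes moved as well. Replicates 2 and 3 only gave 4194 at 30 min and 4627 at 240 min over quiescent cells, in place of 2605 and 3442. In log phase over 240 min they went from 432 to 19 in the fit of the 6 compared libraries and 1066 with the block. They were 3673 there with replicates 2 and 3 only, and 48 to 2076 with 1 library left out. The cause of these shifts was not tested. The replicate block also added ARC40 at 30 min over quiescent cells, and ARP3 and ARC35 at 240 min over quiescent cells, and changed no other call of these genes. DESeq2 changed no call, and edgeR lost ACT1 and ARP3 at 240 min over 30 min. Total-count scaling moved the median of all genes by 0.25, -0.45, -0.27, -0.20 and -0.47 log2 units in the order 30 min over quiescent, 240 min over 30 min, log phase over 240 min, 240 min over quiescent and log phase over quiescent. Its calls over all genes were 1670 higher and 978 lower in the first (1211 and 1394 with size factors), 112 and 693 in the third (192 and 240) and 1376 and 2034 in the fourth (1708 and 1734). Depth limits quiescent replicate 1 most, with 1195233 recovered reads.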
